A study of Rattus norvegicus with 16 samples.

Results

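Voltage-gated sodium and HCN channel genes were followed in cultured rat hippocampal neurons exposed to hydroxyurea. The 8 genes were the sodium channel alpha subunits Scn1a, Scn2a, Scn3a and Scn8a, the beta subunits Scn2b and Scn3b, and the HCN subunits Hcn2 and Hcn4. They were found by the transcript accession of each array probe, which gave 8 probes, 1 per gene, of 30367 distinct probes on the array, 18758 of them matched to 15715 gene symbols. The cells came from the hippocampi of embryonic day 18 Sprague-Dawley rats and grew as primary neurons, for 6 to 9 days in one label field and to day 8 at most in another. They were left untreated or received 5 µM hydroxyurea, an inhibitor of ribonucleotide reductase, for 2, 6, 12 or 24 h. Before the drug was added the Neurobasal medium was exchanged for one whose B27 supplement (5%) lacked antioxidants. How long untreated cultures spent in that medium is not in the labels, so whether their time in it equals that of a treated group is unknown. Each of the 5 groups had 3 samples, and untreated replicate 1 was hybridised to 2 arrays that were averaged. Whether replicates were separate cultures is not in the labels, so p-values reflect the spread among these samples alone, and it may be technical spread. No strain, allele or other agent set the groups apart.

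Voltage-gated sodium channels open when a neuron is depolarised and carry the inward current of the action potential. The alpha subunit forms the pore and the voltage sensors, and beta subunits, which are single-span membrane proteins, adjust gating and bring channels to the surface. HCN channels open on hyperpolarisation, bind cyclic nucleotides and carry a mixed cation current that helps to set the resting potential and rhythmic firing. In hippocampal pyramidal neurons Nav1.2 and Nav1.6 are concentrated at the axon initial segment, and Nav1.3 is prominent in the embryonic brain.

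Levels below are log2 of an array's background-subtracted probe signal minus the 75th percentile of that array, so a difference of 1 is a doubling of signal. Levels of different probes are not comparable, and the number of arrays limits the precision. Each member had 2 spots per array, none flagged as an outlier, and no spot outside the controls was saturated. The probes of 7 members were well above background on all 16 arrays, and that of Scn2b on 6 of them. On each array at least 70.2% of all spots were well above background. In a principal component analysis 12 h replicate 3 stood alone on component 1, which held 29.4% of the variance. Of the neuronal markers 11 of 12 had a named probe, all of them well above background on every array, and none was found for Rbfox3. Astrocyte (9 of 9), radial glia (7 of 7) and oligodendrocyte lineage markers (7 of 8) were also above background on every array, so the cultures held more than neurons. Markers of endothelium (3 of 5), microglia (5 of 9), and fibroblasts and pericytes (5 of 7) were above background on every array too. The endothelial markers Cldn5 and Flt1, the microglial markers Itgam and Ptprc, and the pericyte marker Rgs5 were above background on none. In these bulk samples fewer cells of a type and less RNA per cell cannot be told apart.

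None of the 7 measurable channel genes passed the test at any time of hydroxyurea treatment. The largest mean differences were those of the pacemaker subunit gene Hcn2, which stood 0.30 lower at 12 h, and of Scn8a, which stood 0.27 higher at 12 h, both on the log2 scale. With normexp background correction that of Hcn2 turned to 0.021. At 24 h all 7 means lay below the untreated mean, by 0.0047 to 0.17, as did 45.8% of all probes. That pattern changed with single samples left out. Without 24 h replicate 2 the count was 4 of 7, with 50.7% of all probes lower. Hcn2 turned to 0.15 without 24 h replicate 3, and Hcn4 to 0.12 without 24 h replicate 1. In 24 h replicate 2 Scn1a, Scn2a, Scn3a and Scn3b were at their lowest and Hcn2 and Hcn4 at their highest of the 15 samples.

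Scn1a (NM_030875) encodes Nav1.1, the alpha subunit that carries most sodium current of fast-spiking inhibitory neurons. Its log2 level was -2.44, -2.55 and -2.67 in untreated replicates 1 to 3 and -2.33, -2.89 and -2.82 in those of 2 h. At 6 h it was -2.65, -2.41 and -2.53, at 12 h it was -2.53, -2.68 and -2.31, and at 24 h it was -2.40, -3.29 and -2.48. Every treated group overlapped the untreated one, and 24 h replicate 2 stood well below all other samples. The group means ran from -2.51 ± 0.19 (SD, n = 3) at 12 h down through 6 h, untreated and 2 h to -2.72 ± 0.49 (SD, n = 3) at 24 h. No neighbours in that order differed by more than their spread.

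Scn2a (NM_012647) encodes Nav1.2, the main alpha subunit of young excitatory axons. Its level was 0.74, 0.56 and 0.76 in untreated samples, 0.70, 0.48 and 0.72 at 2 h, and 0.62, 0.62 and 0.76 at 6 h. At 12 h it was 0.55, 0.52 and 0.80, and at 24 h 0.78, 0.23 and 0.62. The untreated range lay inside or across that of every treated group, and again 24 h replicate 2 was the lowest sample. The spread within groups was small (pooled SD 0.17), and the group means fell between 0.54 ± 0.28 (SD, n = 3) at 24 h and 0.69 ± 0.11 (SD, n = 3) in untreated samples, without a gap between neighbours that exceeded it.

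Scn3a (NM_013119) encodes Nav1.3, the alpha subunit of embryonic neurons. In untreated samples it stood at -0.42, -0.54 and -0.53, at 2 h at -0.42, -0.70 and -0.67, and at 6 h at -0.43, -0.71 and -0.51. At 12 h the values were -0.48, -0.53 and -0.43, and at 24 h -0.56, -0.91 and -0.48. Its 3 untreated values were close together, and the 2 h, 6 h and 24 h groups reached below them while still overlapping. This was the tightest of the tested members, with a pooled SD within groups of 0.14. Its order of means, from 12 h through untreated, 6 h and 2 h to 24 h, spanned only -0.48 to -0.65.

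Scn8a (NM_019266) encodes Nav1.6, the alpha subunit that takes over at mature axon initial segments and nodes of Ranvier. It measured -3.13, -2.89 and -2.99 in untreated samples, -3.05, -3.05 and -2.36 at 2 h, and -2.93, -3.18 and -3.08 at 6 h. It measured -2.94, -3.04 and -2.22 at 12 h and -3.06, -3.12 and -3.01 at 24 h. In 13 of the samples it lay between -3.18 and -2.89, and the remaining ones, replicate 3 of 2 h and of 12 h, stood above that span. The higher means of those times came from these samples: without 2 h replicate 3 the difference at 2 h went from 0.19 to -0.04, and without 12 h replicate 3 that at 12 h went from 0.27 to 0.01.

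**Figure D1:**
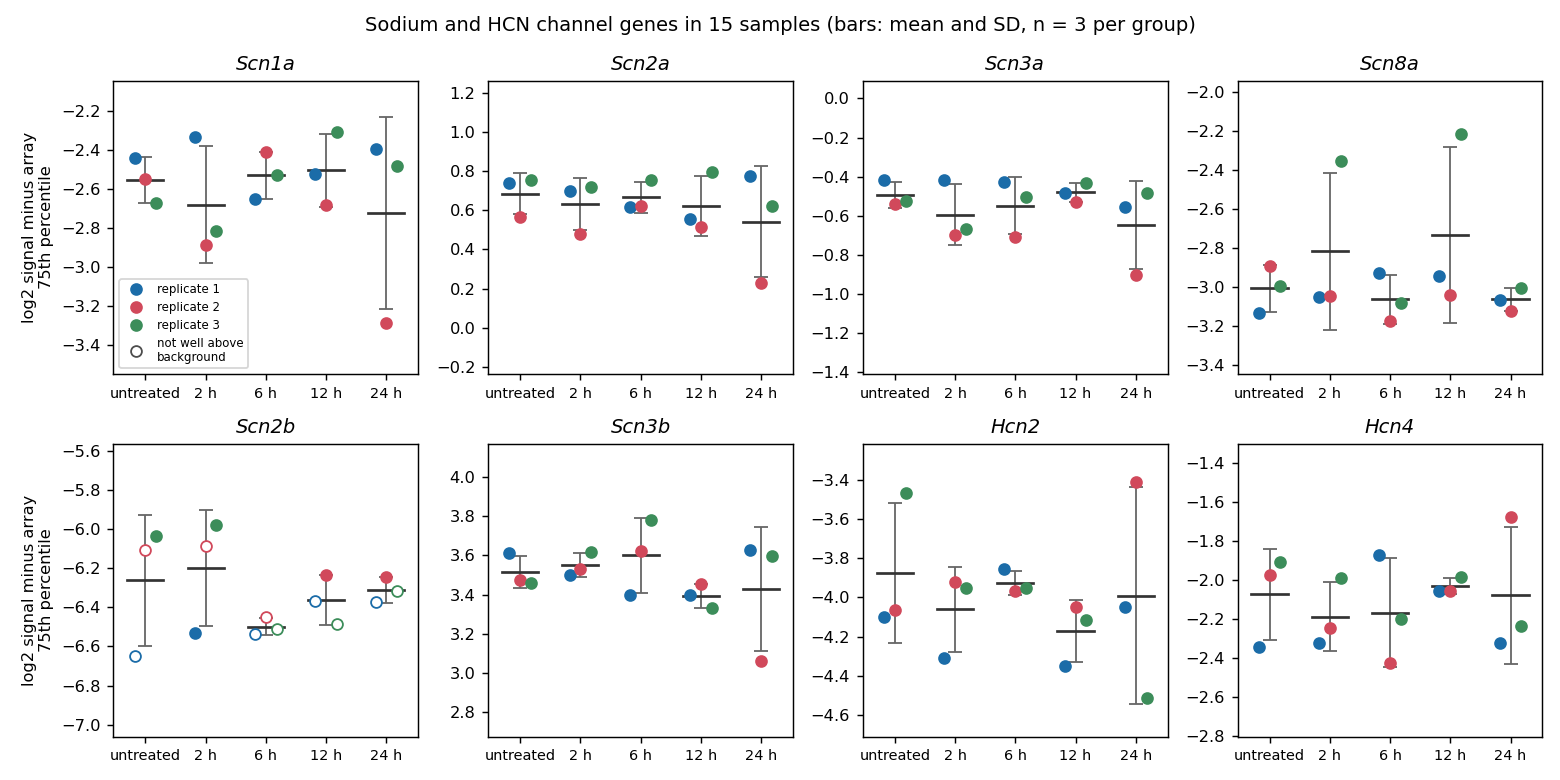
Log2 signal minus the array's 75th percentile (vertical axis, 1.5 log2 units in every panel) of the 8 genes in untreated cultures and at 4 treatment times (horizontal axis); points are samples coloured by replicate number, open where the probe was not well above background, and bars are the mean and SD of 3 samples. Groups overlap in nearly every panel, and 24 h replicate 2 is lowest for Scn1a (-3.29) and highest for Hcn2 (-3.41).

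The beta subunits differed in whether they could be measured. Scn3b (NM_139097), whose protein associates with alpha subunits without a covalent bond, was at 3.61, 3.48 and 3.46 in untreated samples and at 3.50, 3.53 and 3.62 at 2 h. It was at 3.40, 3.62 and 3.78 at 6 h, at 3.40, 3.45 and 3.33 at 12 h, and at 3.63, 3.06 and 3.60 at 24 h. Only at 12 h did the treated values all lie below the untreated ones, and the highest of them was within 0.01 of the lowest untreated value. That was 1 of 28 pairings of a tested member with a time (3.57%). Over all 20278 probes tested, values did not overlap in 6.27% at 2 h, 3.89% at 6 h, 5.16% at 12 h (2.03% lower) and 3.03% at 24 h, so 1 such case is near the background. Scn3b at 12 h had a log2 difference of -0.12 (SE 0.15, limma adjusted p = 0.997).

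Scn2b (NM_012877), the beta subunit that is linked to alpha subunits by a disulfide bond, was close to the background of the array and was not tested. The samples whose probe stood clear of background were 1 of 3 untreated ones, 2 of 3 at 2 h, 0 of 3 at 6 h, 1 of 3 at 12 h and 1 of 3 at 24 h. All 15 values lay between -6.65 and -5.98. The 6 h samples, at -6.53, -6.45 and -6.51, have only an upper bound, and no fold is given because the untreated mean rests on 1 measured sample as well. Untreated replicate 1, at -6.65, lay below all of them. Which group held more Scn2b transcript was not detectable at this signal.

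Hcn2 (NM_053684) encodes a subunit with intermediate opening speed that is found throughout the brain. Untreated samples stood at -4.10, -4.06 and -3.46, those of 2 h at -4.31, -3.92 and -3.95, and those of 6 h at -3.86, -3.97 and -3.95. The 12 h samples stood at -4.35, -4.05 and -4.12 and the 24 h samples at -4.05, -3.41 and -4.52. It was the most variable tested member (pooled SD within groups 0.32), with both its highest and its lowest value at 24 h. Among the untreated samples replicate 3 was far above the others, and without it the difference at 12 h went from -0.30 to -0.09, that at 2 h from -0.19 to 0.02, that at 6 h from -0.05 to 0.16 and that at 24 h from -0.12 to 0.09.

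Hcn4 (NM_021658) encodes the slowly opening subunit best known from the sinoatrial pacemaker of the heart. Its levels were -2.34, -1.97 and -1.91 without drug, -2.33, -2.25 and -1.99 at 2 h, and -1.87, -2.43 and -2.20 at 6 h. They were -2.06, -2.06 and -1.98 at 12 h and -2.32, -1.68 and -2.23 at 24 h. The 2 h and 12 h values lay inside the untreated range, the 6 h values reached past both of its ends, and 24 h replicate 2 stood above it. The 12 h values were the closest together. Group means between -2.19 ± 0.18 (SD, n = 3) at 2 h and -2.03 ± 0.04 (SD, n = 3) at 12 h did not separate beyond that spread.

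The comparisons with untreated cultures ask which channel transcripts differed during exposure. With limma over the 20278 probes that cleared background on all arrays of 1 or more groups, 0 probes (0%) passed an adjusted p of 0.05 at 2, 6, 12 or 24 h, and 0 of the 7 tested members did. Unadjusted p-values under 0.05 were found for 248, 156, 485 and 177 probes at these times, and for 0 members at each of them. At 2 h the members' log2 differences lay between -0.19 (Hcn2, SE 0.24) and 0.19 (Scn8a, SE 0.21), and 5 of 7 were lower. At 6 h, with differences between -0.09 (Hcn4, SE 0.19) and 0.09 (Scn3b, SE 0.15), again 5 of 7 were lower. At 12 h 3 of 7 were lower, between -0.30 (Hcn2, SE 0.24) and 0.27 (Scn8a, SE 0.21). Of all probes tested 50.1% were lower at 2 h, 52.4% at 6 h and 44.5% at 12 h. The members' median difference was -0.10, -0.05 and 0.01 at these times, against -0.00042, -0.0054 and 0.02 over all probes tested.

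At 24 h the differences were -0.17 for Scn1a (SE 0.21), -0.14 for Scn2a (SE 0.14), -0.15 for Scn3a (SE 0.13) and -0.06 for Scn8a (SE 0.21). They were -0.09 for Scn3b (SE 0.15), -0.12 for Hcn2 (SE 0.24) and -0.0047 for Hcn4 (SE 0.19), each with a limma adjusted p of 1. All 7 were lower, with a median of -0.12, while 45.8% of all probes tested were lower and their median difference was 0.01. Without 24 h replicate 2 the count was 4 of 7, with 50.7% of all probes lower. Scn1a then stood at 0.11, Scn2a at 0.01, Scn3b at 0.10, Scn3a at -0.02 and Scn8a at -0.03, while Hcn2 moved to -0.41 and Hcn4 to -0.20. Within slide 1, which held 1 of the 24 h samples, 5 of 7 were lower, all but Scn1a (0.056) and Scn3b (0.016). Within slide 2, which held the others, replicate 2 among them, 5 of 7 were lower, all but Hcn2 (0.061) and Hcn4 (0.18). The equal counts thus cover different genes, and the shares of all probes lower within each slide are not reported here.

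The 95% intervals show what these data could have missed. Over the 7 members they reached from 0.62-fold to 1.57-fold at 2 h, from 0.68-fold to 1.39-fold at 6 h, from 0.57-fold to 1.66-fold at 12 h and from 0.65-fold to 1.32-fold at 24 h. The sodium channel genes of young axons were bounded most closely. At 24 h the interval of Scn2a ran from 0.73-fold to 1.12-fold and that of Scn3a from 0.74-fold to 1.09-fold. A p that misses the threshold does not show that these genes were unaffected.

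**Figure D2:**
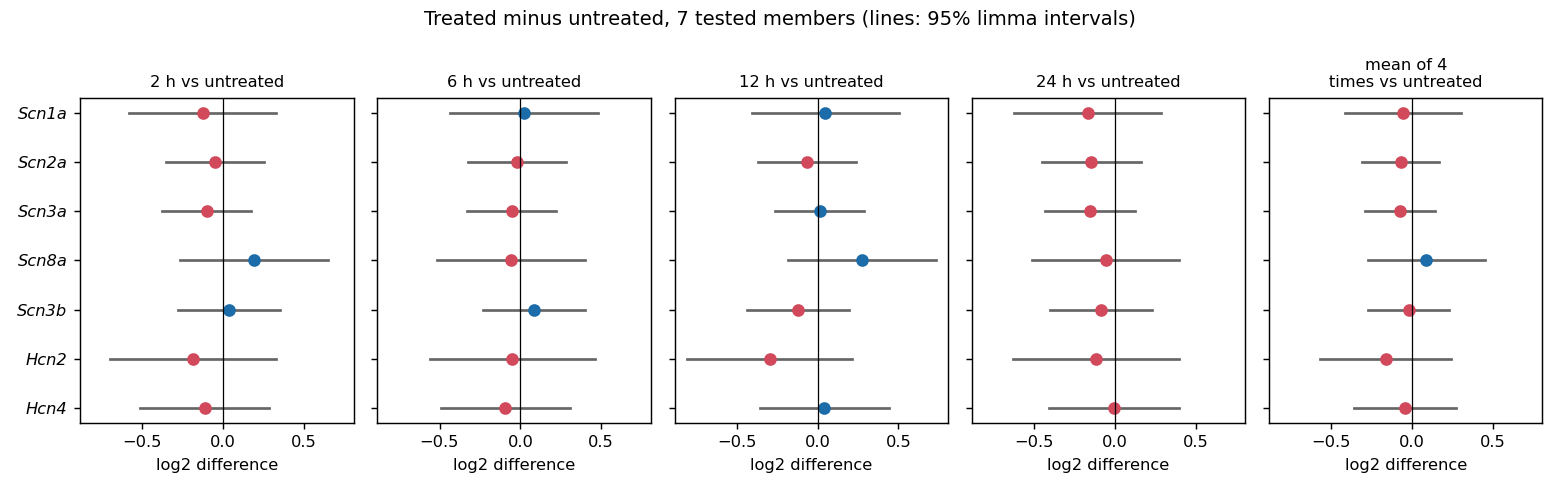
Log2 difference from untreated samples (horizontal axis, points) with its 95% limma interval (lines) for the 7 tested members (rows) at each treatment time and for the mean of the 4 times; blue points are above and red points below 0. Every interval crosses 0, and at 24 h all points lie below it, between -0.17 and -0.0047.

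Averaged over the 4 times, 12 treated samples against 3 untreated ones, 6 of 7 members were lower, with differences between -0.16 for Hcn2 (SE 0.19) and 0.09 for Scn8a (SE 0.17) and 95% intervals between 0.68-fold and 1.37-fold. None passed (limma adjusted p = 1 each), as was the case for 0 of 20278 probes (0%). Beside this, 8 of 9 astrocyte markers had a higher mean in treated samples, 0 of them passing. The differences of the 9 had a median of 0.11 and ran from -0.04 to 0.45. Marker signals were summed before log2 was taken, so bright probes weigh most in a summed level. For astrocytes it was 7.11 to 7.47 in the 12 treated samples against 6.81 to 7.11 in the untreated ones. The lowest treated sum was just above the highest untreated one. All 6 tested fibroblast and pericyte markers had a lower mean, with 0 passing. Over all probes tested, 50.6% lay above the untreated mean in this comparison and 49.4% below it. The share of all probes with treated values clear of all untreated ones is not reported here, so the gap between astrocyte sums is given without a reference. The part of astrocytes, fibroblasts and pericytes in the members' values was not tested. Between 24 h and 2 h, a comparison without the untreated samples, the members differed by -0.25 (Scn8a, SE 0.21) to 0.11 (Hcn4, SE 0.19). At 24 h 5 of 7 were lower, against 46.8% of all probes. Here too 0 probes (0%) passed, and 0 passed the F test among the 4 treatment times. The smallest unadjusted F-test p of a member was 0.323, for Scn8a.

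The samples differed more than the treatment times did. In 24 h replicate 2 Scn1a was 0.76 below its median over the 15 samples, Scn3b 0.44 below, Scn2a 0.40 below and Scn3a 0.38 below. In the same sample Hcn2 was 0.64 above its median and Hcn4 0.38 above, while Scn8a was 0.08 below. Scn1a, Scn2a, Scn3a and the beta subunit gene Scn3b thus stood on the opposite side from Hcn2 and Hcn4 in this sample, with Scn8a near its median. The sample was the lowest for 4 of the 7 tested members and the highest for 2, while over all probes it was the lowest for 13.9% and the highest for 20.0%. Its values spread widely over the array, with a median absolute deviation of 0.21 from the probes' medians. That figure was 0.25 for 12 h replicate 3 and 0.07 to 0.14 for the other 13 samples. Of all probes, 5% deviated in 24 h replicate 2 by less than -0.47 and 5% by more than 0.51, so Scn1a and Hcn2 lay outside that span and the remaining 5 tested members inside it.

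**Figure D3:**
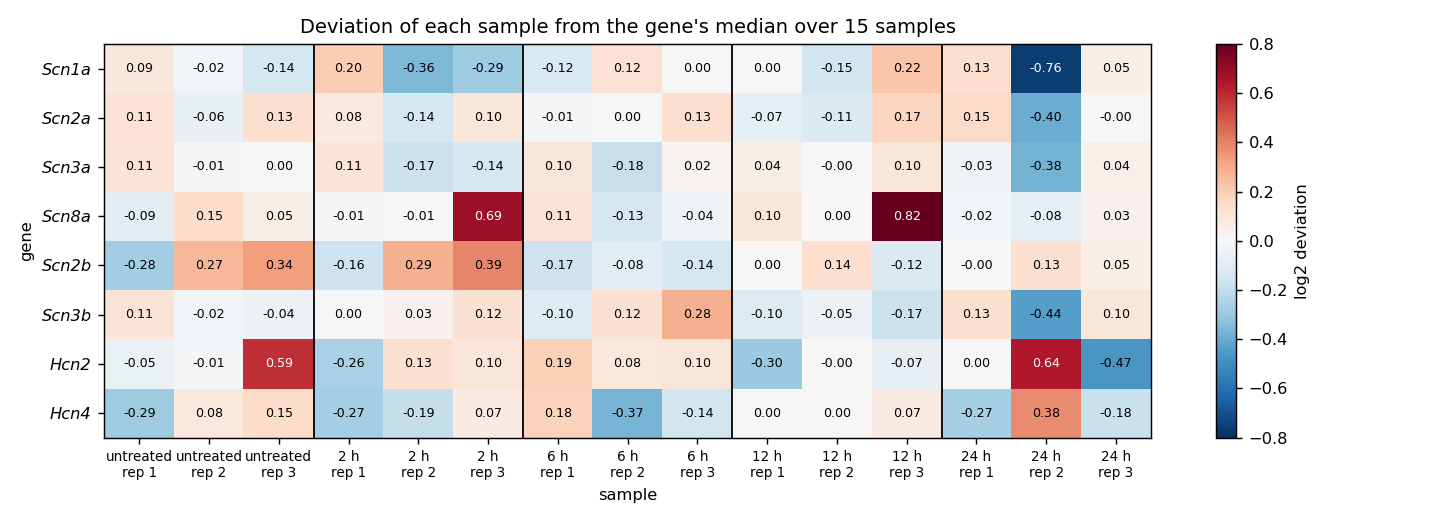
Deviation of each sample (columns) from a gene's median over the 15 samples (rows), on the log2 scale, red above and blue below the median. The column of 24 h replicate 2 is blue for Scn1a (-0.76), Scn2a, Scn3a and Scn3b and red for Hcn2 (0.64) and Hcn4, and the Scn8a row is near 0 except in replicate 3 of 2 h (0.69) and 12 h (0.82).

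Marker lists of other cells in that sample were measured beside it. The summed level of the 8 oligodendrocyte lineage markers was 5.31 and that of the 9 microglial markers 0.09, both the highest of the 15 samples, against 5.04 to 5.27 and -0.57 to -0.20 in untreated samples. Neuronal markers summed to 6.90, the third highest, against 6.84 and 6.78 in the other 24 h samples and 6.78 to 6.89 in untreated samples. Markers of GABAergic interneurons, which use Nav1.1 heavily, summed to 4.36, rank 12 of the 15 samples, against 4.41 to 4.75 in untreated samples. The samples that ranked lower were replicate 1 of 2 h at 4.35, of 6 h at 4.34 and of 12 h at 4.20. Their Scn1a levels were -2.33, -2.65 and -2.53. Radial glia markers, at 6.52, ranked 14 and fibroblast and pericyte markers, at 0.49, ranked 12. Astrocyte markers summed to 7.13, with 7.11 and 7.29 in the other 24 h samples and 6.81 to 7.11 in untreated samples. Their part in the members' values was not tested.

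The 2 spots of a probe share labelling and hybridisation, so the gap between them holds only the spread within an array. On the array of 24 h replicate 2 the gap between the 2 spots of a member was 0.04 to 0.23 on the log2 scale, and for Scn1a the spots read -3.32 and -3.26. Noise of the whole array, which the spots cannot show, was not measured for this sample. The array of 12 h replicate 3 was different, with gaps of up to 1.62 (Hcn4), 1.42 (Scn2b) and 1.30 (Hcn2) and a median of 0.50. There the raised value of Scn8a came from spots at -2.41 and -2.02, both above the -2.89 of the highest untreated sample. Over all probes above background, the median coefficient of variation between spots was 17.5% on this array and 3.11% to 8.16% on the other arrays. The 12 h means of Hcn2 and Hcn4 therefore include a sample whose spots disagreed by more than any difference between groups. Untreated replicate 1 gave Scn1a levels of -2.53 and -2.35 on its 2 arrays, and across the 8 members its arrays differed least for Hcn2, at -4.09 and -4.12, and most for Hcn4, at -2.22 and -2.46.

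**Figure D4:**
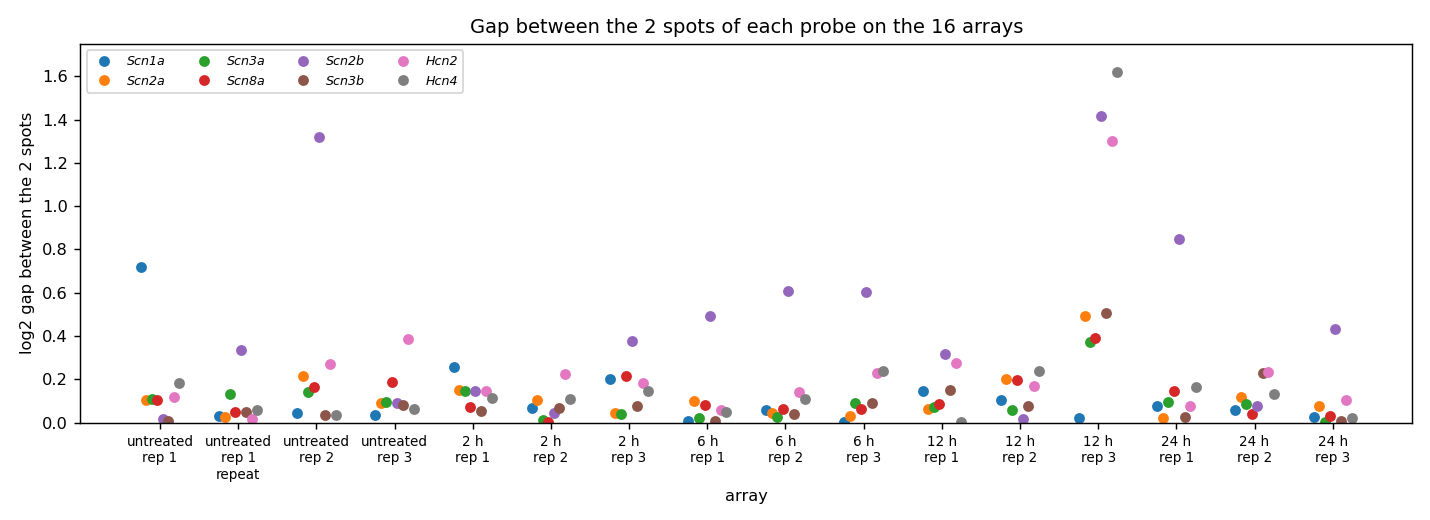
Gap between the log2 signals of the 2 spots of each member's probe (vertical axis) on the 16 arrays (horizontal axis), with 1 coloured point per gene. Most gaps are under 0.4, the array of 12 h replicate 3 reaches 1.62 for Hcn4, and that of 24 h replicate 2 stays at or under 0.23.

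The members also differed in the DNA upstream of their start sites. On the RefSeq gene order of rat assembly GRCr8 Scn3a and Scn2a are neighbours on chromosome 3, where Scn1a adjoins Scn9a, and Scn2b adjoins Scn4b on chromosome 8. Hcn2 and Scn8a lie on chromosome 7, and Scn3b and Hcn4 on chromosome 8. The 250 bases before the start are shown for Scn2a and Scn3a, which are read away from each other and were lowest in the same sample, and for Hcn2, which was highest there. Sequences are from RefSeq on build GRCr8, 5′ to 3′ on the gene's strand, with capitals marking GGGCGG or its reverse complement CCGCCC.

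Scn2a, chr3:70710706-70710955, plus strand: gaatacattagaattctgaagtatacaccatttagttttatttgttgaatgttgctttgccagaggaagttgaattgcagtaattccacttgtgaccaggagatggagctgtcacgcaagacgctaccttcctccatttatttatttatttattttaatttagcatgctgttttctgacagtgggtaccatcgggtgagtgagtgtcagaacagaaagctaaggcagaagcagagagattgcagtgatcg
Scn3a, chr3:70666199-70666448, minus strand: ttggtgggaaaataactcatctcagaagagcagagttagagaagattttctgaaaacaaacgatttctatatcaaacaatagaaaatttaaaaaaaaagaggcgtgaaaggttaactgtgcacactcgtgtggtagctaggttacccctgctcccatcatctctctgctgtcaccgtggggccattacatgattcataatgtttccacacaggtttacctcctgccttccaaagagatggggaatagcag
Hcn2, chr7:10639458-10639707, minus strand: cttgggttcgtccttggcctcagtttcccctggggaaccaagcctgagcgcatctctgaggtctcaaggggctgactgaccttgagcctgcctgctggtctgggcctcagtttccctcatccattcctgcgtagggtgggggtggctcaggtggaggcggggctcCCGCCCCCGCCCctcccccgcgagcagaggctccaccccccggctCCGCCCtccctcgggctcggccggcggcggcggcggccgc

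Promoter entries matched 5 of the 8 members, and Scn1a, Scn3b and Hcn4 had none. GC content was 39.6% for Scn2a, 41.6% for Scn3a and 38.8% for Scn2b, against a median of 51.2% over 33465 rat promoters of the same length. Hcn2 was at 71.6% and Scn8a at 86.0%. The letters GGGCGG, searched on both strands, occurred 3 times for Hcn2, 6 times for Scn8a and 0 times for the other 3, and 30.5% of all these promoters held them. Neither ACGTG, a form of the core of a hypoxia response element, which 16.6% of all promoters held, nor TATAAA, which 12.9% held, was found in the 5 windows on either strand. The other form of that core, GCGTG, was not searched over all promoters, so its share is not known. It occurs in the printed window of Scn3a and, as the reverse complement CACGC, in that of Scn2a. These are descriptions of letters in 1 window, and nothing about the binding of a factor follows from them.

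Other sodium and HCN channel subunits and the proteins that anchor and regulate them gave a like picture. Of 30 such genes 25 had a named probe and 20 were tested, 6 subunits and 14 partners, and 0 passed at any time (0% of all probes passed). The sodium channel genes Scn4a, Scn10a and Scn11a, known from muscle and sensory neurons, and the channel partners Fgf11 and Fgf14 stayed below the signal needed for testing. Scn7a, Nalcn, Trim46, Nedd4l and Unc80 had no named probe. At 24 h 17 of the 20 had a lower mean, 4 of 6 subunits and 13 of 14 partners, with medians of -0.02 and -0.07. Over all probes 45.8% were lower at that time. Without 24 h replicate 2 the count was 15 of the 20, against 50.7% of all probes. At 12 h 16 of the 20 were higher, 5 of 6 subunits and 11 of 14 partners, against 55.5% of all probes. Without 12 h replicate 3 the count was 9, against 54% of all probes.

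No gene of that list had an unadjusted p under 0.05 at any of the 4 times. The M-current potassium channel gene Kcnq3, whose product shares the axon initial segment with sodium channels, had a log2 difference of -0.22 (SE 0.17) at 24 h and the smallest unadjusted limma p of the list at that time, 0.208. Scn9a, the sodium channel gene next to Scn1a, stood at -0.39 (SE 0.31), with its probe well above background on 11 of 16 arrays. Unc79, which encodes a partner of the sodium leak channel, stood at -0.15 (SE 0.14) and Hcn3 at 0.13 (SE 0.14). Ank3, which encodes the ankyrin that holds sodium channels at the initial segment, stood at -0.01 (SE 0.20). Rest, the repressor that keeps sodium channel genes silent outside neurons, stood at 0.03 (SE 0.24). At 12 h the adhesion gene Nfasc, another initial segment component, stood at -0.23 (SE 0.15), and at 2 h Scn9a stood at -0.49 (SE 0.31), with limma adjusted p-values of 0.997 and 1.

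Named genes whose levels tracked a member most closely over the 15 samples were picked from 11975 candidate probes for their Pearson r, so no p is given, and samples that stand apart weigh heavily in them. For Scn1a this was the kinase gene Rps6ka6 (r = 0.93, Spearman coefficient 0.90), for Scn2a Arhgap18, which encodes a GTPase-activating protein (r = 0.97, Spearman 0.91), and for Scn3b the potassium channel gene Kcnk1 (r = 0.92, Spearman 0.85). Scn3a was tracked by Iqcb1 (r = 0.89, Spearman 0.79), Hcn2 by Mapre3, which encodes a microtubule end-binding protein (r = 0.94, Spearman 0.79), and Hcn4 by the kinase gene Csk (r = 0.94, Spearman 0.94). Scn8a was tracked by the synaptic complexin gene Cplx2 (r = 0.97, Spearman 0.84). Scn2b, near background, is left out of this. Leaving out the 2 samples farthest from the member's median lowered r to 0.78 for Scn8a and 0.70 for Scn3a, and left it between 0.82 and 0.95 for the others. For 6 of the 7 tested members, those other than Scn8a, 24 h replicate 2 was among the samples left out.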

How the data were processed

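Spot intensities were read by Agilent Feature Extraction 11.5.1.1 per the file headers: 1 colour, background-subtracted, not scaled between arrays, on a design annotated on rn4. The authors also deposited a standard score for each array's spots. It followed the log signal of the scanner files (r = 0.999996), but in it 24 h replicates 1 and 3 were exchanged relative to those files. Scanner files were used as labelled. Control spots (4259 of 62976) and outlier spots were left out, which removed 75 probes; spots were averaged on the log2 scale and each array's 75th percentile of non-control spots was subtracted. A probe was well above background where more than 0.5 of its spots were, and 20278 probes with this on every array of at least 1 group were tested. Accessions were matched to RefSeq symbols, never by former names, since Scn2a is also an old name of Scn3a and Scn9a.

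Differences between groups came from limma 3.58.1 under R 4.3.3 (1 fit over 15 samples, 10 residual degrees of freedom, two-sided, Benjamini-Hochberg over all probes, threshold 0.05), tested on simulated data. Members, gene lists and marker lists were chosen with earlier results of these data known. All members are named, and of the 30 related genes up to 6 per comparison with the smallest unadjusted p, some of which are not reported here; Ank3, Rest and the dim genes were named after their values were seen. Alternatives were normexp (offset 50, on the median spot signal, since the files hold no mean signal), other scalings, filters, slide and replicate blocks, array weights, and leaving out each sample.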

Additional observations from a re-analysis of the deposited data

How the results depend on the processing

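The 28 member differences from untreated samples (7 tested members, 4 times) were recomputed under 17 alternatives and with each of the 15 samples left out, which gave 896 values. Direction and side of the threshold were kept in 828, the sign changed in 68, and no member passed under any of them (lowest limma adjusted p 0.579). Many of the 828 could not change direction. The filters, the choice or mean of a gene's probes and the replicate blocks leave a member's difference as it was. So does leaving out a sample of a group outside the comparison. The 828 are therefore no measure of stability. The differences are small against their errors, and for those that changed sign the cause was not tested. For every comparison 0 probes passed under each alternative and with each sample left out, except for the mean of the 4 times under the exchanged replicate block below and at 12 h within slide 1, where 4 passed (Adrb1, Tvp23a and 2 unnamed probes, named after their values were seen; 820 at an unadjusted p under 0.05); slide 1 holds 1 sample of 12 h, whose spread is taken from the remaining groups. The number of members lower at 24 h, 7, became 4 with array weights and ran from 4 to 7 with 1 sample left out, the lowest without 24 h replicate 2. Same-numbered samples' deviations correlated at -0.42 to 0.41 over 30 pairs, 19 of them over 0.1, and 7 of 15 samples correlated best with their own number. With the replicate block 0 probes passed at each time (304, 180, 601 and 237 at an unadjusted p under 0.05). Each group holds 1 sample of each number, so a replicate block cannot change a difference between groups. The count of 7 members lower at 24 h is then that of the main fit by design. In the deposited series values 24 h replicates 1 and 3 are exchanged. With these numbers exchanged, a choice made after seeing the data, the correlations ran from -0.0021 to 0.41, 24 pairs were over 0.1 and 13 of 15 samples correlated best with their own number. Summed fibroblast and pericyte markers followed the number too, at 0.41 to 0.51 in every replicate 2 and 1.34 to 1.69 in replicate 3 of every group but 24 h, whose replicate 1 had 1.46 and replicate 3 had 0.69. This is a hint from the data that a number marks a shared preparation, which the labels do not state. With that replicate block 0 probes passed at each time (346, 224, 665 and 281 at an unadjusted p under 0.05). For the mean of the 4 times 1 passed (Ankrd37, 0.70, limma adjusted p = 0.0228, named after its value was seen). The members' differences are again those of the main fit by design. Sign changes on the log2 scale were as follows. With normexp background correction Scn1a was 0.010 at 2 h, Scn8a 0.038 and Hcn2 0.087 at 6 h, Scn2a 0.016, Scn3a -0.11 and Hcn2 0.021 at 12 h, and Hcn2 0.070 at 24 h. Quantile scaling gave -0.0052 for Scn3b at 2 h. The standard score per array gave -0.0065 for Scn1a at 6 h and -0.0011 for Scn3a at 12 h. The deposited series values gave -0.010 for Scn1a at 6 h, and 0 for Scn1a, -0.00083 for Scn3a and -0.0017 for Hcn4 at 12 h. With slide as a block Hcn2 was 0.0071 at 6 h. Within slide 1, Scn8a was -0.056 and Scn3b -0.064 at 2 h, Scn3b -0.071 and Hcn2 0.16 at 6 h, Scn3a -0.036 at 12 h, and Scn1a 0.056 and Scn3b 0.016 at 24 h. Within slide 2, Hcn4 was 0.19 at 2 h, Scn1a -0.019 and Scn2a 0.030 at 6 h, and Hcn2 0.061 and Hcn4 0.18 at 24 h. With array weights Scn8a was -0.0042 at 2 h, Scn2a 0.022 and Hcn2 0.010 at 6 h, Scn1a -0.046 and Hcn4 -0.028 at 12 h, and Scn1a 0.031, Scn2a 0.018 and Scn3b 0.059 at 24 h. With only the first array of untreated replicate 1 Scn3a was -0.0074 at 12 h, and with only its repeat array Scn1a was -0.0067 at 6 h and Hcn4 0.035 at 24 h. With 1 sample left out, 18 differences changed sign. At 2 h Scn2a ran from -0.11 to 0.025, Scn8a from -0.042 to 0.31 and Hcn2 from -0.30 to 0.021. At 6 h Scn1a ran from -0.036 to 0.083, Scn2a from -0.081 to 0.014, Scn3a from -0.11 to 0.028, Scn8a from -0.12 to 0.00063, Scn3b from -0.0060 to 0.19, Hcn2 from -0.16 to 0.16 and Hcn4 from -0.24 to 0.038. At 12 h Scn1a ran from -0.049 to 0.14, Scn3a from -0.011 to 0.053 and Hcn4 from -0.091 to 0.13. At 24 h Scn1a ran from -0.33 to 0.11, Scn2a from -0.26 to 0.013, Scn3b from -0.19 to 0.098, Hcn2 from -0.41 to 0.15 and Hcn4 from -0.20 to 0.12. Signal over background limits Scn2b, for which no level can be ordered, and the number of arrays limits the other members.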
